A study of Mus musculus with 12 samples.

Results

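The insulin-like growth factor IGF1, its binding proteins and the IGF2 receptor were followed in mouse muscle through 8 genes chosen by name: Igf1, Igfbp2, Igfbp3, Igfbp4, Igfbp5, Igfbp6, Igfbp7 and Igf2r. They are 8 of the 54532 genes listed, and 7 of them were among the 12754 genes with a mean FPKM (fragments per gene length and sequencing depth) of at least 0.5, which were tested. Igfbp2 lay below that level. The RNA, selected for poly(A) tails, came from gastrocnemius, a calf muscle, of female ICR SCID mice. These are immunodeficient, usually without mature T and B cells, and were the hosts in every group. TL mice had s.c. tumours grown from HT1080 cells, an established human fibrosarcoma line, and were given selpercatinib, which inhibits the kinase RET, by oral gavage for 19 days at 30 mg/kg once a day. TV mice had the same tumours and were given vehicle. NTV mice were tumour-free and were given vehicle, although the labels name HT1080 for them too. The ages of the mice are not given in the sources used here. No tumour-free mice treated with selpercatinib were analysed here.

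Each group had 4 libraries, numbered 1, 4, 5 and 7 in TL, 3, 4, 6 and 8 in TV, and 2, 3, 5 and 6 in NTV, and values are given in that order. The submitters call them biological replicates. The libraries held 14939830 to 23580603 reads in genes. The muscle genes Ckm, muscle creatine kinase, and Acta1, skeletal actin, were far above all 8 genes in every library, at 3745 to 9227 and 10596 to 30623 FPKM. TL replicates 1 and 5 were set apart by principal component 2 (12.8% of the variance), at -31.9 and -32.6. Ucp1, a marker of brown fat, was at 58.3 and 3.97 FPKM in these same libraries and at 53.4 FPKM in NTV replicate 5, and at most 1.06 FPKM elsewhere. On component 1, with 34.5% of the variance, TL replicate 4 lay at 27.6, within the range of the TV libraries (14.2 to 39.1).

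IGF1 is made in liver and in muscle, in both under the control of growth hormone, and acts through the type 1 IGF receptor and the kinases PI3K and AKT to raise protein synthesis and restrain protein breakdown in muscle. IGF binding proteins hold IGF1 and IGF2 in blood and tissue, where they prolong the life of the ligand, keep it from the receptor or release it when proteases cut them. The IGF2 receptor, also the cation-independent mannose 6-phosphate receptor, takes IGF2 up for breakdown and carries tagged enzymes to lysosomes.

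Relative to NTV muscle, Igfbp3 rose in TV muscle, and Igfbp7 fell in TL muscle. Igfbp5 had the largest difference between TV and NTV among the 7 tested genes and also the largest spread between mice, and it was not called. Igf1 itself, Igf2r, Igfbp4 and Igfbp6 were not called in any comparison, and no member was called between TL and TV. Calls here are at an adjusted p under 0.05 from limma over all 12754 tested genes. Changes are log2 differences of FPKM + 0.5 with their SE, on which the change of a weakly expressed gene is understated. For each gene the 3 groups share a single estimate of spread, from which its SE comes.

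**Figure D1:**
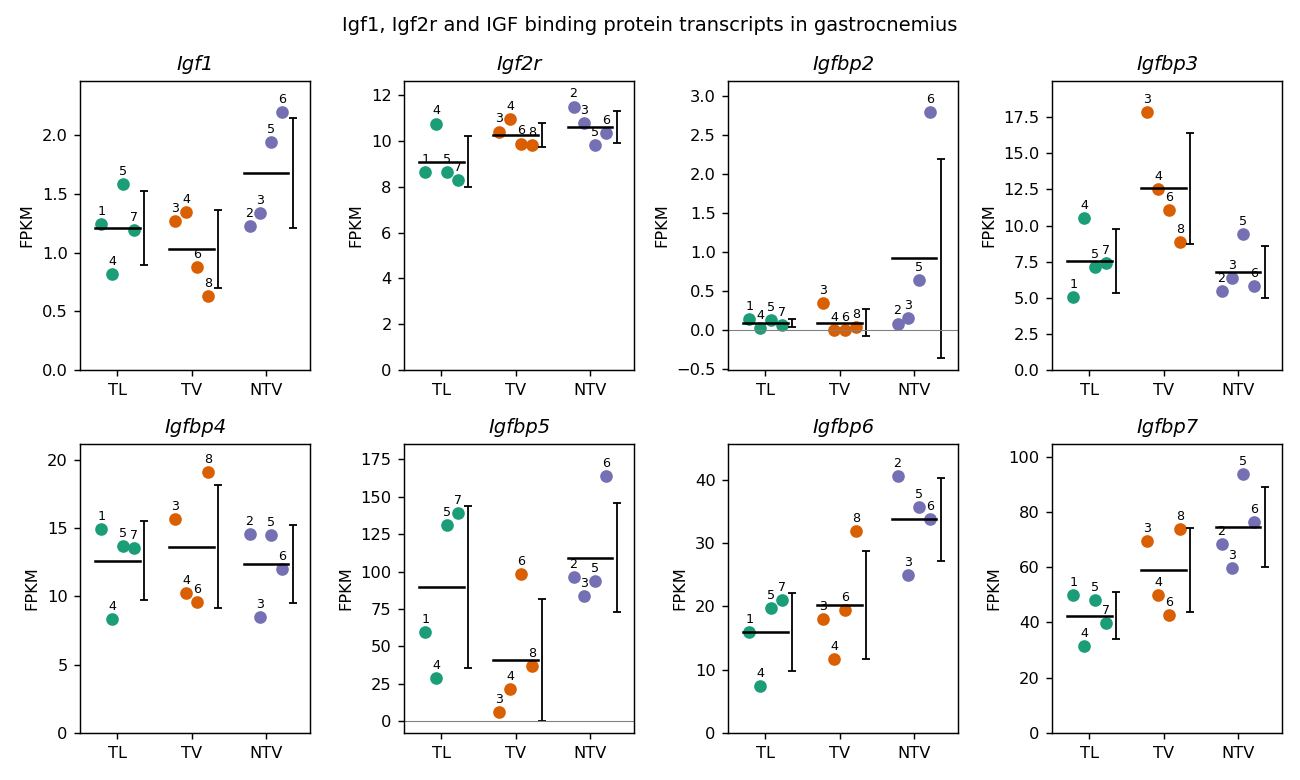
FPKM of the 8 genes in each of the 12 libraries (points), with the mean and SD of each group of 4, TL, TV and NTV from left to right. Igfbp3 is highest in TV, Igfbp7 is lower in every TL library than in any NTV library, and Igfbp5 runs from 6.35 to 98.6 FPKM within TV.

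The promoters of 3 binding protein genes are shown, as those of the genes the results turn on: Igfbp3 and Igfbp7, which were called, and Igfbp5, which varied most within groups among the 7 tested genes. Each line holds the 250 bases before the RefSeq start site in build GRCm38.p6, on the strand of the gene, 5′ to 3′. The capitals in Igfbp3 mark a stretch covered by 3 overlapping matches to the TATA box letters TATANA, which start 30 bases before the start site on the strand of the gene and 32 and 30 bases before it on the opposite strand.
Igfbp3 (chr11:7213924-7214173, minus strand): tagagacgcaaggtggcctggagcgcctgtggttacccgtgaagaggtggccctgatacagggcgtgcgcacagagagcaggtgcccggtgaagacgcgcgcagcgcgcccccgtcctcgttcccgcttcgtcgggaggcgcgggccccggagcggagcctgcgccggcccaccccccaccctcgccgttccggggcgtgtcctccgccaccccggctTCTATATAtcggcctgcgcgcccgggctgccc
Igfbp5 (chr1:72874866-72875115, minus strand): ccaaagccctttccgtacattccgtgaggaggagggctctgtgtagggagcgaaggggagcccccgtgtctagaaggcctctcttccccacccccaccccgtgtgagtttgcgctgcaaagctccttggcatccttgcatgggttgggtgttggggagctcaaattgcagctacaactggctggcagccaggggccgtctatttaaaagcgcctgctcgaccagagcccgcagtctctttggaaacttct
Igfbp7 (chr5:77408046-77408295, minus strand): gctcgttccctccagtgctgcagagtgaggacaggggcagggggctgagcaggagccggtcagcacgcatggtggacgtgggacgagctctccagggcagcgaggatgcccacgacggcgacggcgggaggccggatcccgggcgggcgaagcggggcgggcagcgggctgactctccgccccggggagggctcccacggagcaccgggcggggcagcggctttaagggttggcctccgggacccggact
Igfbp5 and Igfbp7 held no match to these letters. RefSeq had 9 promoter windows for the 8 genes, each from 250 bases before to 50 bases after a start site. Searched on both strands, TATANA was found in those of Igfbp3, Igfbp4 and Igfbp6 and in 24.7% of 32851 mouse promoters of the same length. Letters for STAT factors (TTCNNNGAA, in 8.30% of promoters), for forkhead factors (GTAAACA, 3.65%) and for the glucocorticoid receptor (its palindromic element, 0.475%) had no match in any of the 9 windows. The shares of G and C in the lines shown were 73.2% in Igfbp3, 58.8% in Igfbp5 and 74.0% in Igfbp7.

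Igf1 (ENSMUSG00000020053, chr10:87858265-87937042, plus strand of mm10) encodes the ligand. It was at 1.25, 0.817, 1.59 and 1.19 FPKM in TL libraries, at 1.27, 1.34, 0.881 and 0.633 FPKM in TV libraries, and at 1.23, 1.34, 1.94 and 2.20 FPKM in NTV libraries. The NTV values were the highest on average, but replicates 2 and 3 of NTV lay within the ranges of TL and TV, so no pair of groups was separate. Means were 1.21 ± 0.315 FPKM in TL, 1.03 ± 0.334 FPKM in TV and 1.68 ± 0.469 FPKM in NTV (SD, n = 4 each). TV differed from NTV by -0.51 ± 0.20 (SE) on the log2 scale, with a 95% interval of -0.95 to -0.07 and limma adjusted p = 0.0840. This difference was called when libraries were scaled to an equal total that left out mitochondrial genes and the 50 most abundant (-0.61, adjusted p = 0.0415). TL differed from NTV by -0.34 ± 0.20 (limma adjusted p = 0.298) and from TV by 0.17 ± 0.20, an interval of -0.28 to 0.61 (limma adjusted p = 0.736). Between 87 and 389 reads per library lay behind these values, the fewest of the 7 tested genes. An antisense gene, Igf1os, overlaps Igf1 and averaged 0.0156 FPKM. The sources used here do not state whether counting used strand.

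Igf2r (ENSMUSG00000023830, chr17:12682406-12769664, minus strand), the receptor that takes up IGF2, was the steadiest member. Its values were 8.66, 10.8, 8.64 and 8.31 FPKM in TL, 10.4, 10.9, 9.89 and 9.80 FPKM in TV, and 11.5, 10.8, 9.83 and 10.3 FPKM in NTV. All but TL replicate 4 of the TL libraries lay below every TV and NTV library, while TV and NTV overlapped. Its spread within groups, an SD of 0.11 on the log2 scale, was smaller than that of most tested genes, of which 9.16% had a smaller one. TL differed from TV by -0.17 ± 0.09 (limma adjusted p = 0.387) and from NTV by -0.22 ± 0.09 (limma adjusted p = 0.151), and TV differed from NTV by -0.05 ± 0.09 (limma adjusted p = 0.749). The antisense RNA Airn, known in mice for the imprinted silencing of Igf2r, overlaps 28354 bases of the gene and averaged 2.24 FPKM. Airn differed between TL and NTV by 0.26 ± 0.12 (limma adjusted p = 0.163), and without counting by strand the reads of the overlap cannot be told apart.

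Igfbp3 (ENSMUSG00000020427, chr11:7206086-7213923, minus strand) encodes the main carrier of IGF1 in blood, where it joins the acid-labile subunit. It was at 5.08, 10.5, 7.16 and 7.42 FPKM in TL libraries, at 17.9, 12.5, 11.1 and 8.86 FPKM in TV libraries, and at 5.50, 6.36, 9.40 and 5.82 FPKM in NTV libraries. Replicates 3, 4 and 6 of TV were above every NTV library, and replicate 8 was below NTV replicate 5. Means were 7.54 ± 2.23 FPKM in TL, 12.6 ± 3.83 FPKM in TV and 6.77 ± 1.79 FPKM in NTV (SD, n = 4 each). Igfbp3 rose in TV against NTV by 0.83 ± 0.24 (95% interval 0.31 to 1.36, limma adjusted p = 0.0265), a fold of 1.78 on the scale of FPKM + 0.5. TL differed from TV by -0.70 ± 0.24 (-1.23 to -0.18), which was not called (limma adjusted p = 0.195), and from NTV by 0.13 ± 0.24 (limma adjusted p = 0.760). The call in TV against NTV ended, with the direction kept, with no filter on low values (adjusted p = 0.0589), with libraries scaled to an equal total (0.0606), and without TV replicate 3 (0.0718) or 4 (0.0593) or NTV replicate 2 (0.0704), 3 (0.0555) or 6 (0.0679). Igfbp3 lies 3539 bases from Igfbp1, a binding protein gene of liver that had 0 reads in every library.

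Igfbp7 (ENSMUSG00000036256, chr5:77349240-77408041, minus strand) encodes a secreted protein of vessels and matrix that binds IGFs weakly. It was at 49.9, 31.4, 48.2 and 39.8 FPKM in TL libraries, at 69.5, 49.9, 42.6 and 73.7 FPKM in TV libraries, and at 68.3, 59.7, 93.8 and 76.5 FPKM in NTV libraries. Every TL library was below every NTV library, and the TV libraries spanned the gap between them. Means were 42.3 ± 8.5 FPKM in TL, 58.9 ± 15 FPKM in TV and 74.6 ± 14.5 FPKM in NTV (SD, n = 4 each). Igfbp7 fell in TL against NTV by 0.81 on the log2 scale (SE 0.21, 95% interval -1.26 to -0.36, limma adjusted p = 0.0334), a fold of 0.569. TV differed from NTV by -0.35 ± 0.21 (limma adjusted p = 0.230), and TL differed from TV by -0.46 ± 0.21 (limma adjusted p = 0.305). The call in TL against NTV ended, with the direction kept, with no filter on low values (adjusted p = 0.0682), without the 3 libraries with Ucp1 above 2 FPKM (0.0596), and without TL replicate 4 (0.0958) or 7 (0.0788) or NTV replicate 2 (0.0619), 5 (0.0886) or 6 (0.0818). Polr2b, a subunit of RNA polymerase II on the opposite strand, shares 85 bases with Igfbp7 and stayed between 13.4 and 16.7 FPKM, with a difference of 0.16 ± 0.07 between TL and NTV (limma adjusted p = 0.180).

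Igfbp6 (ENSMUSG00000023046, chr15:102144362-102149511, plus strand), whose product prefers IGF2 over IGF1, was at 15.9, 7.38, 19.7 and 21.0 FPKM in TL, at 18.0, 11.7, 19.3 and 31.9 FPKM in TV, and at 40.6, 25.0, 35.7 and 33.7 FPKM in NTV. The TL and NTV libraries did not overlap, and of the TV libraries replicate 8 alone reached the NTV range. Means were 16.0 ± 6.15 FPKM in TL, 20.2 ± 8.46 FPKM in TV and 33.8 ± 6.53 FPKM in NTV (SD, n = 4 each). The difference of TL from NTV was -1.13 ± 0.34 (95% interval -1.86 to -0.40), larger than that of Igfbp7, and it missed the threshold (limma adjusted p = 0.0563). It was called with library weights (adjusted p = 0.0381), with voom on reads (0.0398), and without TV replicate 4 (0.0486) or 8 (0.0400). TV differed from NTV by -0.79 ± 0.34 (limma adjusted p = 0.102), which was called with library weights (0.0251) and without TL replicate 4 (0.0423) or TV replicate 8 (0.0390). TL differed from TV by -0.34 ± 0.34 (limma adjusted p = 0.666).

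Igfbp5 (ENSMUSG00000026185, chr1:72857932-72874884, minus strand) encodes a binding protein that muscle cells secrete as they differentiate and that also binds matrix. It was at 59.8, 28.9, 131 and 139 FPKM in TL libraries, at 6.35, 21.3, 98.6 and 37.1 FPKM in TV libraries, and at 96.1, 83.9, 93.5 and 163 FPKM in NTV libraries. TV replicate 6 lay within the NTV range and the other 3 TV libraries lay below it. Of the TL libraries, replicates 5 and 7 lay within the NTV range, and replicates 1 and 4 lay below it. The highest library was 4.81 times the lowest in TL, 15.5 times in TV and 1.95 times in NTV. Within groups the SD was 1.14 on the log2 scale, larger than in 98.9% of tested genes, whose median was 0.21.

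Means of Igfbp5 were 89.8 ± 54.0 FPKM in TL, 40.8 ± 40.5 FPKM in TV and 109 ± 36.5 FPKM in NTV (SD, n = 4 each). TV differed from NTV by -1.95 ± 0.70 (95% interval -3.49 to -0.42, limma adjusted p = 0.0601). This was called at an equal total (-2.06, adjusted p = 0.0451), at an equal total that left out mitochondrial genes and the 50 most abundant (-2.09, 0.0494), with library weights (-2.07, 0.0237), and without TL replicate 4 (0.0480) or TV replicate 6 (-2.57, 0.0136). TL differed from TV by 1.47 ± 0.70, an interval of -0.07 to 3.00 (limma adjusted p = 0.331), and from NTV by -0.49 ± 0.70 (limma adjusted p = 0.694). With 930 to 19399 reads per library, counting error was small beside this spread. Igfbp5 and Igfbp2 are neighbours, 5457 bases apart.

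Igfbp4 (ENSMUSG00000017493, chr11:99041244-99054392, plus strand) encodes a binding protein that inhibits IGF action until the protease PAPP-A cuts it. Its values were 14.9, 8.36, 13.6 and 13.6 FPKM in TL, 15.7, 10.3, 9.57 and 19.1 FPKM in TV, and 14.6, 8.48, 14.5 and 12 FPKM in NTV. The 3 groups overlapped throughout, with means of 12.6 ± 2.90 FPKM in TL, 13.6 ± 4.53 FPKM in TV and 12.4 ± 2.85 FPKM in NTV (SD, n = 4 each). TV differed from NTV by 0.11 ± 0.25 (limma adjusted p = 0.779), TL from TV by -0.08 ± 0.25 (limma adjusted p = 0.906), and TL from NTV by 0.03 ± 0.25 (limma adjusted p = 0.957). The sign of each of these differences turned under at least 1 other scaling of the libraries. The intervals were -0.43 to 0.65 for TV against NTV, -0.63 to 0.46 for TL against TV and -0.52 to 0.57 for TL against NTV.

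Igfbp2 (ENSMUSG00000039323, chr1:72824503-72852474, plus strand), a binding protein better known from liver and fetal tissue, was near the limit of detection. Its reads numbered 5, 1, 4 and 3 in TL libraries, 16, 0, 0 and 1 in TV libraries, and 3, 5, 24 and 88 in NTV libraries, which sum to 13 in TL, 17 in TV and 120 in NTV. In FPKM these are 0.147, 0.0311, 0.138 and 0.0700 in TL, 0.355, 0, 0 and 0.0390 in TV, and 0.0890, 0.161, 0.643 and 2.80 in NTV. Most NTV reads came from replicate 6, and NTV replicates 2 and 3 lay below TV replicate 3. A count of 0 allowed up to 0.0909 FPKM in TV replicate 4 and 0.0970 FPKM in TV replicate 6, at 3 reads and for counting error alone. Tested with no filter, the difference was -0.92 in TV against NTV (limma adjusted p = 0.252) and -0.89 in TL against NTV (limma adjusted p = 0.351), values that depend on the added 0.5 FPKM.

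**Figure D2:**
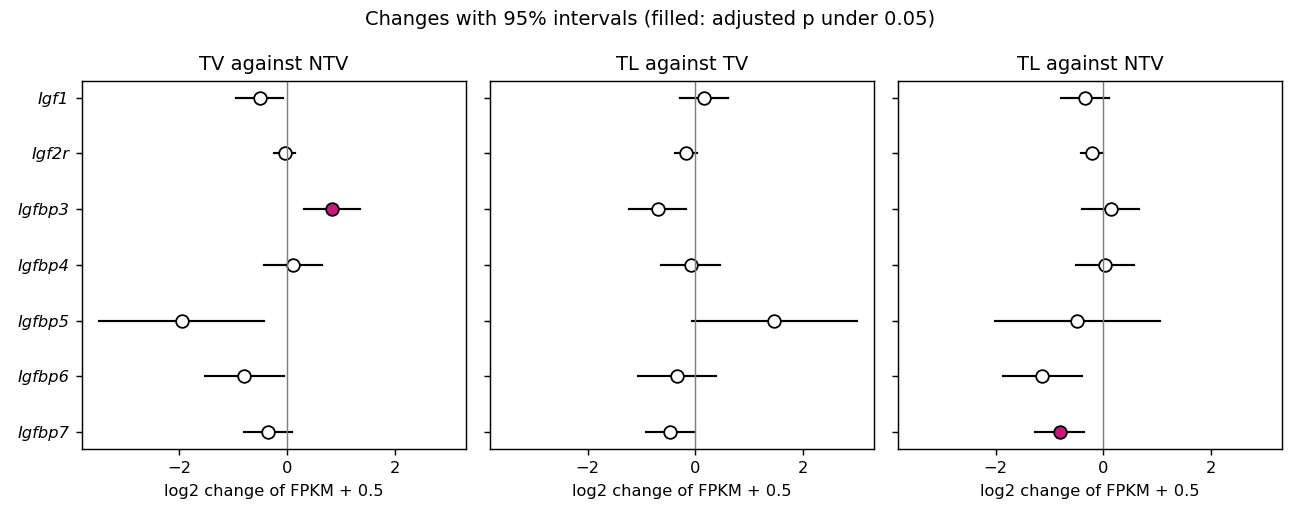
Log2 differences of FPKM + 0.5 for the 7 tested genes, in panels for TV against NTV, for TL against TV and for TL against NTV, with 95% intervals from limma. Filled points are called at an adjusted p under 0.05: Igfbp3 in TV against NTV (0.83) and Igfbp7 in TL against NTV (-0.81).

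In TV against NTV, 1 of the 7 tested members was higher and none was lower, against 13.8% of all tested genes called higher and 11.5% called lower (25.2% in either direction). Their median difference was -0.35, against 0.02 over all tested genes. In TL against NTV, none was higher and 1 was lower, where 4.19% of all tested genes were called higher and 4.62% lower (8.81% in either direction); the median was -0.34, against 0.02 over all genes. Igfbp6 and Igfbp7 were the 2 members whose TL and NTV values did not overlap, a separation found downwards in 10.1% of all tested genes. In TL against TV, none of the 7 was called by limma, 2 had an unadjusted p under 0.05 (Igfbp3 and Igfbp7), and voom also called 0, where limma called 0.517% of all tested genes. The 3 comparisons share their groups in pairs, so their values are not independent of each other. The p-values rest on the spread between mice within groups, pooled over all 3 groups of 4, also the group outside the comparison.

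Since FPKM are per length, levels can be set beside each other, but only roughly, as each gene has a single fixed length whatever its transcripts. In TL muscle the order by mean was Igfbp5, Igfbp7, Igfbp6, Igfbp4, Igf2r, Igfbp3, Igf1 and Igfbp2. The ranges of neighbours in this order did not overlap between Igfbp7 and Igfbp6, Igfbp3 and Igf1, or Igf1 and Igfbp2, and overlapped for the rest. In TV muscle Igfbp7 came first, before Igfbp5, Igfbp6, Igfbp4, Igfbp3 and Igf2r, each overlapping the next, with Igf1 and then Igfbp2 below and separate. In NTV muscle the order was as in TL, with ranges that overlapped only between Igfbp5 and Igfbp7, Igfbp4 and Igf2r, and Igf1 and Igfbp2.

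The FPKM of the 6 binding proteins summed to 168 ± 64.9 in TL, 146 ± 35.6 in TV and 238 ± 46.1 in NTV (SD, n = 4 each). All 4 TV sums, from 106 to 181, were below the 4 NTV sums of 184 to 294, and the TL sums, from 86.6 to 221, overlapped both. Igfbp5 made up 49.3% ± 14.3 of the sum in TL, 25.3% ± 20.8 in TV and 45.4% ± 7.50 in NTV. Its share was lowest in TV replicate 3, at 4.98%, and in TV replicate 6 it was 54.4%, within the range of NTV (37.8% to 55.6%). Igfbp7 made up 27.6% ± 9.01 in TL, 42.1% ± 13.2 in TV and 31.7% ± 4.95 in NTV. Igfbp3 made up 5.56% ± 4.38 in TL, 9.29% ± 4.30 in TV and 2.92% ± 0.853 in NTV, and each TV library (5.19% to 14%) lay above each NTV library (1.98% to 3.80%). Igf1 amounted to 0.765% ± 0.176 of the binding protein sum in TL, 0.780% ± 0.424 in TV and 0.703% ± 0.107 in NTV. These shares differed by less than their spread between mice. Shares are tied to each other, and that of Igfbp3 moves with the level of Igfbp5 as well as with its own.

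**Figure D3:**
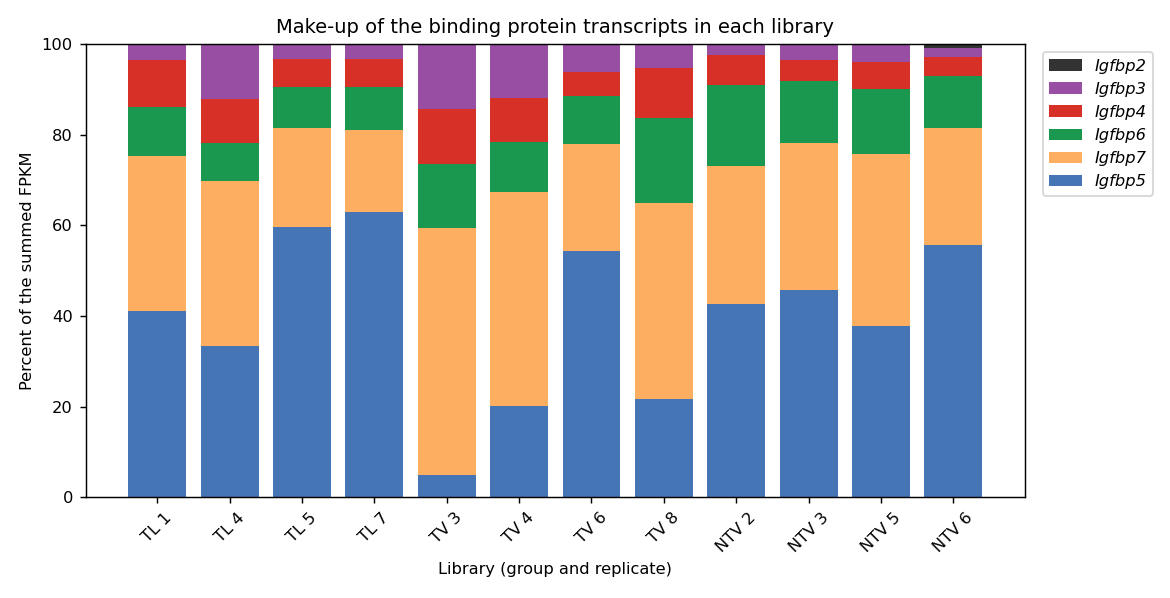
Percent of the summed FPKM of 6 binding protein genes held by each gene, 1 stacked bar per library, with TL, TV and NTV from left to right. Igfbp5 holds 4.98% in TV replicate 3 and 54.4% in TV replicate 6, and 37.8% to 55.6% in the NTV libraries.

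Within both tumour groups, the library with the least Igfbp5 had the most Igfbp3. In TL this was replicate 4, at 28.9 FPKM of Igfbp5 and 10.5 FPKM of Igfbp3, and in TV it was replicate 3, at 6.35 and 17.9 FPKM. The inverse order did not hold among the remaining libraries. TL replicate 1 had the next lowest Igfbp5 (59.8 FPKM) and the lowest Igfbp3 of TL (5.08 FPKM). TV replicate 6 had the most Igfbp5 of TV (98.6 FPKM), while TV replicate 8 had the least Igfbp3 (8.86 FPKM). In NTV, replicate 3 had the least Igfbp5 (83.9 FPKM) and replicate 5 the most Igfbp3 (9.40 FPKM), so the pattern was not seen there. TL replicate 4 also had the lowest Igf1, Igfbp2, Igfbp4, Igfbp6 and Igfbp7 and the highest Igf2r of the TL libraries, and it was the TL library within the TV range on component 1. TV replicate 3 was the TV library farthest from NTV on that component, at 39.1. With 4 libraries per group no correlation was computed.

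**Figure D4:**
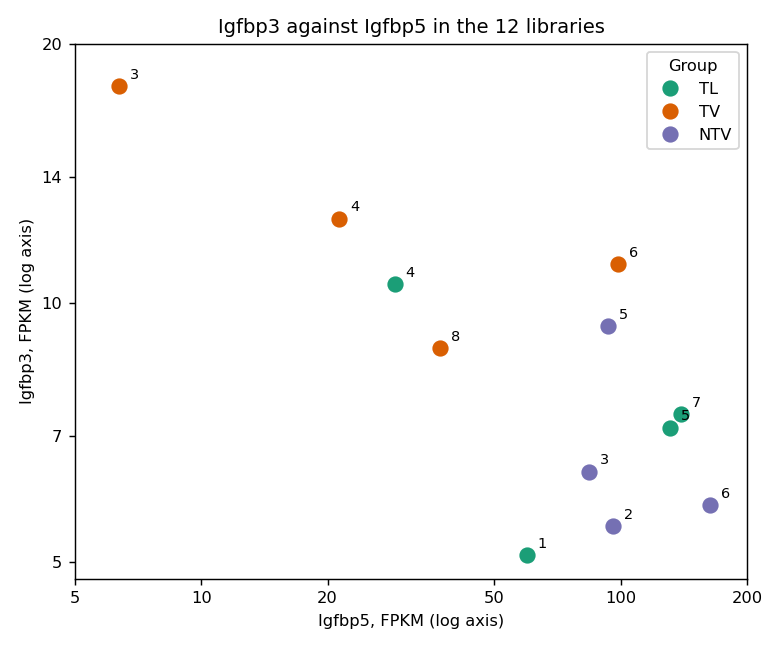
Igfbp3 against Igfbp5 in FPKM, both on log axes, 1 point per library with its replicate number, for TL, TV and NTV. TV replicate 3 (6.35 FPKM of Igfbp5, 17.9 FPKM of Igfbp3) and TL replicate 4 (28.9 and 10.5 FPKM) hold the least Igfbp5 and the most Igfbp3 of their groups.

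Muscle holds several cell types that transcribe these genes, and in bulk RNA fewer cells of a type and less RNA per cell cannot be told apart. The counts of called markers that follow stand beside 4.62% of all tested genes called lower and 4.19% called higher in TL against NTV, and 11.5% lower and 13.8% higher in TV against NTV. Of 12 markers of fibro-adipogenic progenitors, the stromal cells of muscle, 4 fell and none rose in TL against NTV, and 6 fell and none rose in TV against NTV. Their summed level was 136 to 279 FPKM in TL, 198 to 339 FPKM in TV and 297 to 438 FPKM in NTV. Lum, a matrix proteoglycan, fell in TL against NTV (-1.14 ± 0.26, limma adjusted p = 0.0208), whereas Dcn, another, differed by -0.39 ± 0.21 (limma adjusted p = 0.249). Of 9 tenocyte markers 8 were tested, of which 6 fell in TL and 7 in TV against NTV, and none was called higher. The transcription factor Scx went the other way, by 1.12 ± 0.38 in TV (limma adjusted p = 0.0505) and 0.84 ± 0.38 in TL (limma adjusted p = 0.181) against NTV. The other 7 tested had differences below 0 in both comparisons. The tenocyte markers summed to 18.8 to 48.3 FPKM in TL, 17.6 to 42.9 FPKM in TV and 67.4 to 130 FPKM in NTV.

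Of 12 endothelial markers, 3 fell in TL against NTV and 2 in TV against NTV, with none higher and with sums of 76.9 to 112 FPKM in TL, 96.6 to 130 FPKM in TV and 118 to 155 FPKM in NTV. The 2 called in TV against NTV, Kdr and Cdh5, are a share near that of all tested genes called lower there. Of 10 markers of smooth muscle and pericytes, 2 fell in TL against NTV (sums of 133 to 170 FPKM in TL, 151 to 228 in TV and 153 to 253 in NTV). In TV against NTV the channel subunit Abcc9 rose (0.37 ± 0.10, limma adjusted p = 0.0164), a single call near the share of all tested genes, while the other 9 had differences below 0 that were not called and the median of the 10 was -0.27. The sums of progenitor, tenocyte and endothelial markers, like Igfbp6 and Igfbp7, were lower in every TL library than in any NTV library, and their part in the differences of these genes was not tested. The largest part of the progenitor sum, Gsn, was itself not called. Adipocyte markers summed to 1028 to 2230 FPKM in TL, 929 to 1799 FPKM in TV and 577 to 1095 FPKM in NTV, with 1 of 10 higher in TV against NTV and none called in TL against NTV. Car3, a carbonic anhydrase, made up most of these sums on average. It was at 990 ± 195 FPKM in TL, 750 ± 120 FPKM in TV and 606 ± 223 FPKM in NTV (SD, n = 4 each). Car3 was not called in TV (limma adjusted p = 0.286) or TL (limma adjusted p = 0.0689) against NTV. The level of these sums is thus mostly that of Car3 and not of the list, while their differences between groups also came from other markers. Cfd averaged 323 ± 271 FPKM in TL, 265 ± 191 FPKM in TV and 74.6 ± 49.0 FPKM in NTV (SD, n = 4 each). Cfd was not called in TV (limma adjusted p = 0.118) or TL (limma adjusted p = 0.184) against NTV. All 10 markers had differences above 0 in both comparisons. Macrophage markers had no call in any comparison among 8 tested (sums of 21.7 to 40.2 FPKM in TL, 24.4 to 56.7 in TV and 22 to 56.3 in NTV). Of 6 satellite cell markers 3 were tested, and Cdh15, a cadherin, rose in TV against NTV (1.16 ± 0.24, limma adjusted p = 0.0064). It averaged 16.7 ± 1.84 FPKM in TV and 7.18 ± 0.646 FPKM in NTV (SD, n = 4 each) and made up most of the summed level of the list (8.71 to 20.7 FPKM in TL, 16.2 to 20.7 in TV and 8.28 to 10.7 in NTV). The transcription factors Pax7, which marks these cells (-0.12 ± 0.19, limma adjusted p = 0.683), and Myf5 (0.16 ± 0.21, limma adjusted p = 0.624) were not called, so the sum follows Cdh15 and not the list. Of 10 muscle fibre markers, 1 rose and 1 fell in TV against NTV and none was called in TL against NTV, with sums of 41320 to 49692 FPKM in TL, 40305 to 80325 in TV and 47390 to 59259 in NTV. The 8 Schwann cell markers had no call in either comparison (sums of 27.9 to 72.2 FPKM in TL, 35.3 to 69 in TV and 26.3 to 100.48 in NTV). In TL against TV no marker of these lists was called, where 0.517% of all tested genes were called. No marker of these lists was at 0 in all libraries.

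The protein-coding genes whose centred log2 profile over the 12 libraries was nearest to that of a called member were found by the root mean square difference, among genes with a mean of at least 1 FPKM. For Igfbp3, whose own profile had a root mean square of 0.49, they were Mcl1 (difference 0.22), an inhibitor of apoptosis, Nop14 (0.22), a factor of ribosome assembly, and Mfsd4a (0.23). For Igfbp7, at 0.43, they were Serping1 (0.17), the C1 inhibitor of complement, Thbs2 (0.17), a matrix thrombospondin, and Fbln5 (0.18), an elastic fibre protein. These likenesses include the differences between groups.

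Around these members, 42 further genes of the IGF axis were examined in 6 lists, of which 34 were tested. In TV against NTV 8 of them rose and 2 fell, beside 13.8% and 11.5% of all tested genes, with a median of 0.09. Among ligands and receptors, Igf1r, the receptor of IGF1, was at 3.09 ± 0.931 FPKM in TV against 1.11 ± 0.180 FPKM in NTV (SD, n = 4 each) and rose by 1.13 ± 0.20 (limma adjusted p = 0.0030), with all 4 TV libraries (2.46 to 4.46 FPKM) above all 4 NTV libraries (0.872 to 1.25 FPKM). It was at 2.00 ± 0.617 FPKM in TL, with a difference of -0.53 ± 0.20 from TV (limma adjusted p = 0.233) and of 0.61 ± 0.20 from NTV (limma adjusted p = 0.0778). The insulin receptor Insr differed between TV and NTV by 0.40 (limma adjusted p = 0.0594). Igf2 was below the filter, at 0.208 to 1.03 FPKM over all libraries.

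Of 9 receptor adaptors and kinases, 3 rose and 1 fell in TV against NTV, beside 13.8% and 11.5% of all tested genes. Irs2, the insulin receptor substrate 2, averaged 40.0 ± 27.1 FPKM in TV and 6.75 ± 3.10 FPKM in NTV (SD, n = 4 each) and rose by 2.38 ± 0.63 (limma adjusted p = 0.0184). Pik3r1, a regulatory subunit of PI3K, rose by 1.03 ± 0.28 (limma adjusted p = 0.0202), and the kinase Akt1 by 0.66 ± 0.16 (limma adjusted p = 0.0109). Grb14, an adaptor that inhibits the insulin receptor, fell to 0.929 ± 0.376 FPKM in TV, against 3.23 ± 0.377 FPKM in NTV (SD, n = 4 each; -1.42 ± 0.20, limma adjusted p = 0.0014). The call of Irs2 ended without TV replicate 3 (adjusted p = 0.0539) or NTV replicate 2 (0.0534). That of Pik3r1 ended without TV replicate 3 (0.0530), NTV replicate 3 (0.0508) or the libraries with Ucp1 above 2 FPKM (0.0634).

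In TL against NTV, 1 of the 34 rose and 1 fell, both of them adaptors, beside 4.19% and 4.62% of all tested genes. Pik3r1 averaged 12.3 ± 2.57 FPKM in TL and 4.34 ± 0.695 FPKM in NTV (SD, n = 4 each; 1.39 ± 0.28, limma adjusted p = 0.0131), a call that ended without the libraries with Ucp1 above 2 FPKM (adjusted p = 0.0511). Grb14 was lower, at 1.17 ± 0.393 FPKM in TL (-1.19 ± 0.20, limma adjusted p = 0.0071). In TL against TV none of the 34 was called, where 0.517% of all tested genes were called.

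Of 7 tested genes of growth hormone signalling, 1 rose in TV against NTV, a single call near the 13.8% of all tested genes called higher there. It was the transcription factor Stat5b (0.46 ± 0.15, limma adjusted p = 0.0386), at 82.9 ± 16.4 FPKM in TV and 59.6 ± 6.11 FPKM in NTV (SD, n = 4 each). That call ended, with the direction kept, with no filter (adjusted p = 0.0717), at an equal total (0.0909), at an equal total that left out mitochondrial genes and the 50 most abundant (0.146), with quantile normalization (0.111), with only the 2 groups in the fit (0.0568) and when the 3 Ucp1-positive libraries were left out (0.112). It ended as well without TV replicate 4 (0.0519), 6 (0.0854) or 8 (0.0726) or NTV replicate 2 (0.0629), 5 (0.0980) or 6 (0.0864). The growth hormone receptor Ghr differed between TV and NTV by 0.11 (limma adjusted p = 0.550). Of the 3 proteases and inhibitors of binding protein cleavage that were tested, Stc2, an inhibitor of PAPP-A, differed between TV and NTV by 0.58 (limma adjusted p = 0.158) and Htra1, a secreted serine protease, by -0.54 (limma adjusted p = 0.144), and none was called in any comparison. The gene of PAPP-A itself, Pappa, was below the filter, at a mean of 0.0558 FPKM. Igfals, the acid-labile subunit, was the 1 tested gene of the other binding proteins and was not called. It was at 0.951 to 2.89 FPKM in TL, 0.467 to 1.09 FPKM in TV and 0.621 to 0.797 FPKM in NTV. The difference of Igfals was 0.80 ± 0.25 in TL against NTV (limma adjusted p = 0.0645) and 0.22 ± 0.25 in TV against NTV (limma adjusted p = 0.544).

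Of 12 genes that tag or sort lysosomal enzymes with mannose 6-phosphate, the second set of cargo of Igf2r, 3 rose and 1 fell in TV against NTV, where 25.2% of all tested genes were called in either direction (13.8% higher and 11.5% lower). Gnptab, a subunit of the enzyme that makes the tag, rose by 0.76 ± 0.17 (limma adjusted p = 0.0082), the protease Furin by 0.60 ± 0.11 (limma adjusted p = 0.0042) and the sorting adaptor Gga1 by 0.39 ± 0.10 (limma adjusted p = 0.0146). The retromer subunit Vps29 fell by 0.35 (SE 0.09, limma adjusted p = 0.0146). The call of Gga1 ended at an equal total (adjusted p = 0.0809). M6pr, the smaller mannose 6-phosphate receptor, averaged 8.52 ± 0.860 FPKM in TV and 8.5 ± 0.581 FPKM in NTV (SD, n = 4 each), a difference within the spread.

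**Figure D5:**
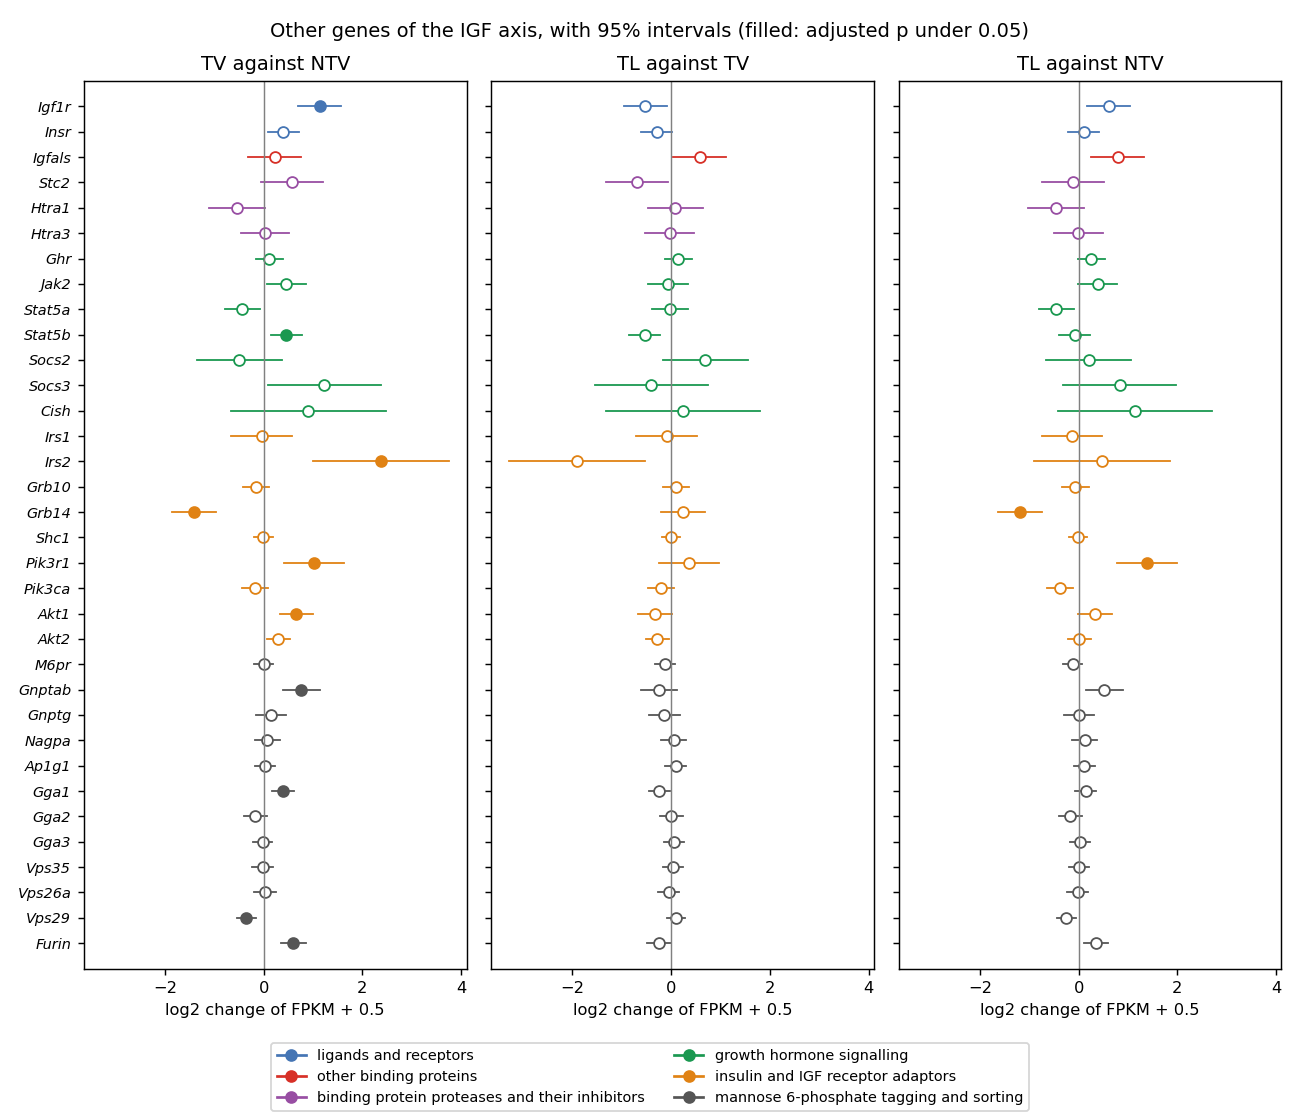
Log2 differences of FPKM + 0.5 of the 34 tested genes of the IGF axis other than the members, with 95% intervals from limma, in panels for TV against NTV, for TL against TV and for TL against NTV, coloured by list. Filled points are called at an adjusted p under 0.05: 8 of 34 higher and 2 lower in TV against NTV, 1 higher and 1 lower in TL against NTV, and none in TL against TV.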

How the data were processed

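The authors deposited FPKM values for 54532 genes in 12 libraries, in a single table with gene positions on mm10. Gene length in bases (another unit, from the same deposited table) served only to recover reads. HISAT2 2.05, featureCounts 1.5.0-p3, DESeq2 and mm10 are named, without their roles, per the submitters' processing notes. Messenger RNA was taken with poly-T beads and primed with random hexamers, per the labels' protocols. Use of strand in counting is not given in the sources used here.

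Multiplied by length, FPKM came to whole multiples of a unit read for 100% of genes in every library, within 0.1 read. The implied scale matched median-of-ratios size factors with a relative difference of at most 4.62e-12, a scaling that assumes similar levels of most genes in all groups. Over 18 pairs of libraries of the same group, chi-square per degree of freedom was 17.9 or more, which is above counting error.

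limma 3.58.1 (R 4.3.3) was run on log2(FPKM + 0.5) of all 12 libraries, with a mean for each of the 3 groups and a mean-variance trend. Benjamini-Hochberg adjustment covered the 12754 genes whose mean was 0.5 FPKM or more. The script was tested on simulated data. The members, lists and markers were chosen with earlier results of these data known. All 8 members are named. Also named are genes of the IGF axis lists called in a comparison and up to 3 others per list, up to 3 genes of each marker list, and the 3 genes of most similar profile for each called member. Alternatives were pseudocounts of 0.1 and 1, no filter or a mean of at least 1 FPKM, 3 scalings (equal total, the same leaving out mitochondrial genes and the 50 most abundant, quantiles), no trend, a robust trend, library weights, a fit of 2 groups alone, a replicate block, voom on recovered reads, and libraries left out. Promoters are from RefSeq, GRCm38.p6. Figures were drawn with matplotlib 3.10.9.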

Additional observations from a re-analysis of the deposited data

Results flagged for a closer look

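Of 90 groups of 4 values examined, 9 had 1 library far from the other 3 (a gap to the nearest above the critical share of the range of the group in Dixon's test), where chance gives about 1 in 20. Igf2r was at 10.8 FPKM in TL replicate 4, where the next TL library had 8.66 FPKM, and Igfbp3 made up 12.1% of the binding protein sum in the same library, where the next had 3.49%. The genes of growth hormone signalling summed to 95.9 FPKM in TL replicate 5, below the next at 117 FPKM. Igfbp5 was at 163 FPKM in NTV replicate 6, where the next NTV library had 96.1 FPKM. Igfbp2 was at 0.355 FPKM in TV replicate 3, from 16 reads, and made up 0.278% of the binding protein sum there, where the next TV library had 0.0390 FPKM and 0.0229%. The other binding proteins, of which Igfals alone was tested, summed to 0.467 FPKM in TV replicate 3, below the next at 0.990 FPKM. Ucp1 was at 58.3 FPKM in TL replicate 1 and at 53.4 FPKM in NTV replicate 5, where the next libraries of these groups had 3.97 and 1.06 FPKM.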

How the results depend on the processing

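In TV against NTV, 3217 genes were called, and 2223 to 3443 with 1 library left out. The members called, 1 of 7, were 0 with no filter on low values, 3 at an equal total that left out mitochondrial genes and the 50 most abundant, 3 with library weights, and 0 to 3 with 1 library left out. At an equal total of all reads the count stayed at 1, but the member called was Igfbp5, which was lower (limma adjusted p = 0.0451), and not Igfbp3 (limma adjusted p = 0.0606). In TL against TV, 66 genes were called. They were 19 with no filter, 131 at an equal total, 8 when the fit held only the 2 groups, 232 with library weights, 0 without the libraries with Ucp1 above 2 FPKM, 4 without TL replicates 1 and 5, and 7 to 282 with 1 library left out; the members called were 0 throughout. In TL against NTV, 1123 genes were called, 742 with no filter, 712 without the Ucp1 libraries, and 514 to 1289 with 1 library left out. The members called, 1 of 7, were 0 with no filter and without the Ucp1 libraries, 2 with library weights, 2 with voom on recovered reads, and 0 to 2 with 1 library left out.

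Scaling moved the balance of calls: in TV against NTV 54.6% were higher, against 31.7% at an equal total and 31.8% when mitochondrial genes and the 50 most abundant were left out, and in TL against TV 45.5% against 85.5% and 70.2%. These scalings moved the median of all genes by up to -0.11 in TV against NTV and 0.11 in TL against TV.

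Signs turned for small differences. At an equal total, Igfbp4 was 0.043 in TL against TV. When mitochondrial genes and the 50 most abundant were left out it was -0.024 in TV against NTV, 0.021 in TL against TV and -0.0023 in TL against NTV. With library weights, TL against TV was 0.11 for Igfbp4 and 0.00073 for Igfbp6. Without the Ucp1 libraries, Igf1 was -0.0097 in TL against TV and Igfbp4 -0.093 in TL against NTV, and without TL replicates 1 and 5 these were -0.0097 and -0.18. With 1 library left out, Igfbp4 ranged from -0.064 to 0.26 in TV against NTV, -0.23 to 0.094 in TL against TV and -0.14 to 0.20 in TL against NTV, and Igfbp3 from -0.031 to 0.30 in TL against NTV. The cause was not tested.

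With a replicate block, 0 genes and 0 members were called in each of the 3 comparisons, Igf1 was -0.18 in TL against TV and Igfbp4 -0.053 in TL against NTV. That fit left few degrees of freedom. For libraries that share a number across groups, correlations of the deviations from the group mean were 0.014 to 0.13, within the -0.23 to 0.24 of other pairs. Nothing in the labels says that a number pairs animals. With 4 mice per group, a difference of the size of its interval could not be resolved. Few reads limit precision as well for Igfbp2 (0 to 88 reads per library) and, to a lesser degree, for Igf1 (87 to 389).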
